A study of Homo sapiens with 12 samples.

Results

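Transcripts of 10 genes for translesion synthesis and other error-prone DNA synthesis were followed through treatment of melanoma cells with MAPK inhibitors and through recovery from it. The genes were chosen by symbol (RAD18, REV1, POLH, POLI, POLK, REV3L, MAD2L2, POLQ, POLL and POLM), and all 10 were found among the 44659 genes listed in the count table. The cells were A375, an established human melanoma line driven by mutant BRAF, and RNA sequencing was done on 3 libraries in each of 4 groups. Control cells (CC) were kept for 72 h with DMSO, the solvent of the drugs. Treated cells (TC) were kept for 72 h with 500 nM vemurafenib, which inhibits BRAF, and 500 nM cobimetinib, which inhibits MEK (together MAPKi). Persister cells (PC) had the same 72 h of MAPKi and then 2 days in medium without drug, and recovered cells (RC) had 9 such days. All groups shared the same medium, serum and glutamine supply, and ribosomal RNA was depleted. The study names total RNA as the input for sequencing but describes RNA extraction from lysates cleared by centrifugation. Whether the RNA was cytoplasmic only is therefore not certain. The harvest of CC and of TC is labelled day 0, whereas PC and RC were each harvested from a culture batch of their own with no DMSO samples, so that for these groups the batch and the days in culture cannot be told apart from the condition. All libraries came from a single cell line, and nothing stated that the replicates of a group were separate cultures, so p-values measured only the spread between these libraries, which may be technical.

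Translesion synthesis lets replication pass a damaged base. RAD18, a ubiquitin ligase, marks the sliding clamp PCNA at stalled forks, and this mark helps to recruit the Y-family polymerases eta (POLH), iota (POLI) and kappa (POLK) and the deoxycytidyl transferase REV1, which also serves as a scaffold. These enzymes can insert a base opposite a lesion, and polymerase zeta, built on the catalytic subunit REV3L and the adaptor MAD2L2 (REV7), can extend from it. Polymerase theta (POLQ) joins broken DNA ends through short stretches of homology, and polymerases lambda (POLL) and mu (POLM) fill gaps during classical end joining. The polymerases among them copy undamaged DNA less accurately than the replicative polymerases do.

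Total counts ran from 37773389 to 55567097 per library. Levels are given in CPM, the usual unit of counts scaled by the normalized library size. At the lowest depth 3 counts were worth 0.0794 CPM by the total count, before normalization. This floor covers counting error only. The 10 genes had between 113 and 6425 counts in every library, far above this floor, and all passed the filter on low counts that left 15916 genes for testing. Drug action was checked with DUSP6, a feedback phosphatase of the MAPK pathway, whose mean level was 156 CPM in CC, 3.94 CPM in TC, 5.24 CPM in PC and 135 CPM in RC. CC replicate 3 stood apart in this gene (77.6, 94.4 and 297 CPM in replicates 1 to 3), so RC lay above the other CC libraries. SPRY4, another feedback inhibitor, went from 444 CPM in CC (342, 270 and 720) to 1.65 CPM in TC. The melanocyte marker SOX10 was present throughout (means between 553 and 1046 CPM), but the pigment cell markers TYR and MLANA were low in all groups. Over all 8 melanocyte markers the summed level was 1665 to 1892 CPM in CC, 7093 to 10309 in TC, 3496 to 5106 in PC and 1528 to 1594 in RC. DCT carried most of the TC sum (mean 407 CPM in CC and 6452 in TC), while S100B was lower in TC (-0.91 on the log2 scale) and MITF was not called. The 5 epithelial markers summed to at most 13.1 CPM and the 3 endothelial markers to at most 5.23 CPM, with CDH5 at 0, while the 4 leukocyte markers summed to between 119 and 1065 CPM, nearly all of it CD68, with PTPRC under 1 CPM. Mitochondrial genes took 3.12% to 3.74% of counts in TC and 1.47% to 1.55% in RC, and in CC they took 2.43%, 2.33% and 1.58% in replicates 1 to 3. Their part in the results below was not tested.

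The promoters of the genes with the largest changes are shown here because these genes moved together or in opposite directions. Each window runs from 250 bases before to 30 bases into the transcript (RefSeq, GRCh38.p14, 5′ to 3′ on the strand of the gene). Capitals mark matches, on either strand, to TTTGAA, a core sequence of the cell cycle CHR element, or to GGCGGGAA, an E2F site. The windows are POLQ at chr3:121545959-121546238 (minus strand), REV3L at chr6:111483189-111483468 (minus strand), RAD18 at chr3:8963443-8963722 (minus strand) and POLK at chr5:75511641-75511920 (plus strand).
POLQ: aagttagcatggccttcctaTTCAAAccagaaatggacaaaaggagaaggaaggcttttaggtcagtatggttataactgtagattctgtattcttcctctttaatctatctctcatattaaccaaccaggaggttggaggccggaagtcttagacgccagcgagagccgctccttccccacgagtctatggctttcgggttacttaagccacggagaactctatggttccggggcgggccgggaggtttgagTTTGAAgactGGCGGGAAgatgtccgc
REV3L: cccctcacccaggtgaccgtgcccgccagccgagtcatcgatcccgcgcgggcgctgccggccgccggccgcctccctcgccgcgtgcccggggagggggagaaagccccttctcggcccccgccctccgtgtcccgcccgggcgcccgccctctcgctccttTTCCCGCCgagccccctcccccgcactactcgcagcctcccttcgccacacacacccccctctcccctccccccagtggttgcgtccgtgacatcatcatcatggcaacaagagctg
RAD18: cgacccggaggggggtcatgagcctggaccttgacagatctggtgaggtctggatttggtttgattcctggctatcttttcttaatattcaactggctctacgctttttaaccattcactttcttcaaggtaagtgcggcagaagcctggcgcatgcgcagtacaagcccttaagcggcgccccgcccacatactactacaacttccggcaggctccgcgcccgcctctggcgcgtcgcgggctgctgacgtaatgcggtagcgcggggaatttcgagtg
POLK: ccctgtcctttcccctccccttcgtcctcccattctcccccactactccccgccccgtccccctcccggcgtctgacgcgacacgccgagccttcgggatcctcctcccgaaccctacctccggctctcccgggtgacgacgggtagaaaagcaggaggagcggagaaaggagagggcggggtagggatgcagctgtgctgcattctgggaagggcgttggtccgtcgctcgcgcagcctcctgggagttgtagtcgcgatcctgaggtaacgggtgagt

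TTTGAA was found in the window of POLQ and of no other of the 10 genes, once on the gene's strand at base 4 of the transcript and once on the other strand, and 14.5% of the 35116 promoters of the same length held it. GGCGGGAA was found in 3 of the 10 (POLQ at base 14 of the transcript, REV3L on the other strand 87 bases before the start, and POLI), against 2.98% of all promoters. CCAAT was found in MAD2L2 and POLM (33.6% of all promoters), CACGTG, the E-box bound by MITF and MYC, in POLI and REV1 (6.94%), and TGANTCA, the AP-1 site, in none of the 10 (7.35%). The motifs do not overlap each other in these windows, and a match describes letters only.

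The comparison of TC with CC asked how these genes stood after 72 h of MAPKi. In TC, 9 of the 10 genes fell and POLK rose at an adjusted p under 0.05 (edgeR quasi-likelihood test, adjusted over all genes tested), where 34.7% of all genes tested fell and 33.2% rose. The median log2 fold change of the 10 was -0.66, beside -0.02 for all genes tested. Beyond 1.5-fold, POLQ, REV3L, RAD18 and POLL were lower (19.3% of all genes tested) and POLK was higher (16.1%). The call of POLL beyond 1.5-fold was lost under 6 of 18 alternatives, among them DESeq2 and the fits without CC replicate 1, TC replicate 1 or TC replicate 3 (adjusted p 0.0561 to 0.220 in these). POLM gained it without CC replicate 3 (adjusted p 0.0440) or TC replicate 1 (adjusted p 0.0399). The libraries of the groups did not overlap in any of the 10 genes, with TC below in 9 (34.7% of all genes tested) and above in POLK (33.3%). In bulk RNA, fewer cells of a type and less RNA per cell cannot be told apart, and this holds for every level given here.

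**Figure D1:**
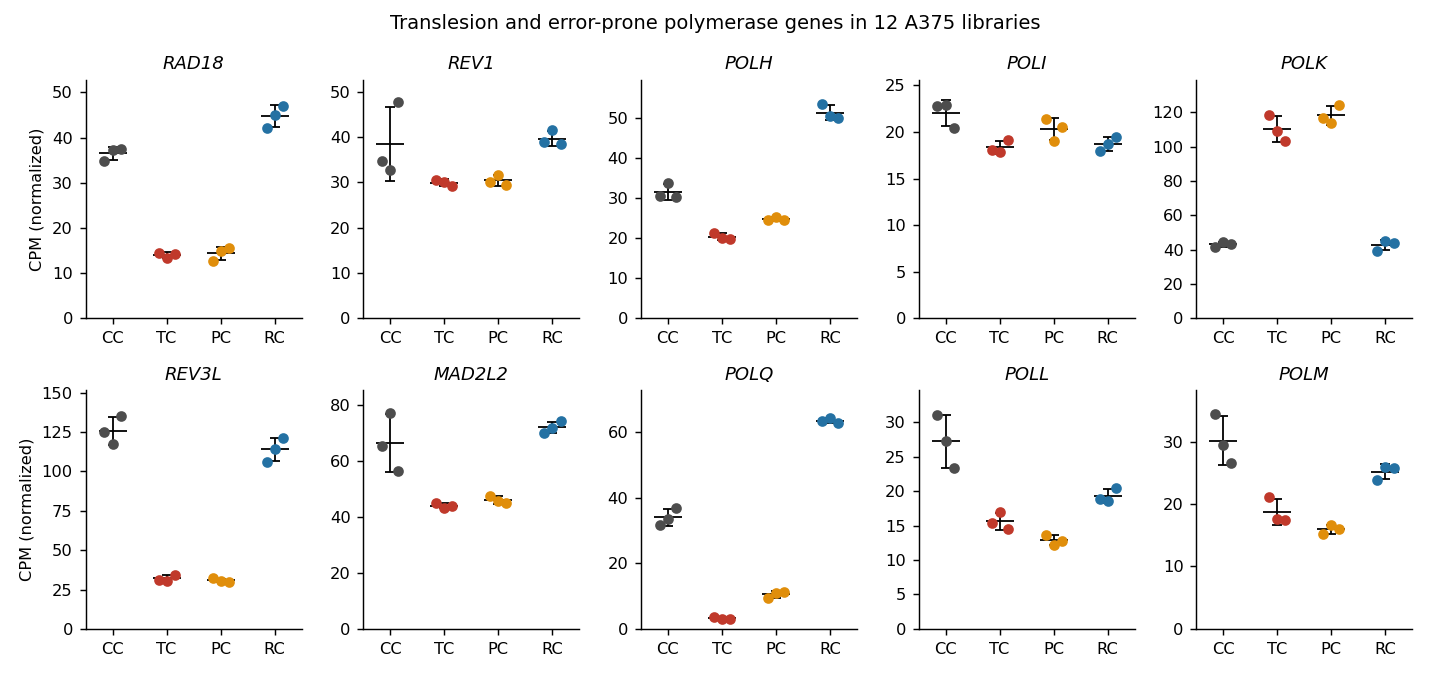
Level of each of the 10 genes in CPM (y axis, linear from 0) in the 4 groups (x axis), where points are libraries and bars are the mean ± SD of 3. POLQ sits at 2.89 to 3.71 CPM in TC and at 63.0 to 64.3 CPM in RC, and POLK is the gene that is high in TC and PC.

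RAD18 (chromosome 3, 8775402 to 8963773, minus strand, GRCh38, as all coordinates here) carries the ligase activity that opens the pathway. Its level was 34.8, 37.2 and 37.4 CPM in the CC libraries and 14.5, 13.2 and 14.2 CPM in TC. It was 12.7, 14.8 and 15.6 CPM in PC and 42.2, 44.9 and 47.1 CPM in RC. Every TC and PC library was below every CC library, and every RC library was above them. The log2 fold change was -1.39 in TC (SE 0.09, adjusted p 3.1e-08), a 2.61-fold drop, and -1.34 in PC (SE 0.09, adjusted p 3.9e-08). In RC it was 0.29 (SE 0.08, adjusted p 0.0152), a call that was lost without CC replicate 1 (0.26, adjusted p 0.0545) or without RC replicate 3 (0.26, adjusted p 0.0621). TC and PC did not differ by more than their spread in RAD18, with a difference of 0.04 (95% interval -0.14 to 0.23).

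Among the Y-family genes, POLK (chromosome 5, 75511845 to 75609991, plus strand) was the exception in direction. Polymerase kappa is known for bypassing bulky adducts on guanine. The CC libraries had 41.7, 44.2 and 43.4 CPM, and the TC libraries had 118, 109 and 103 CPM. In PC the level was 117, 114 and 124 CPM, and in RC 39.3, 44.8 and 44.1 CPM. All 6 libraries of TC and PC were thus above all 6 of CC and RC. The rise was 2.56-fold in TC (log2 fold change 1.35, SE 0.07, adjusted p 8.9e-09) and 2.75-fold in PC (log2 fold change 1.46, SE 0.07, adjusted p 4.9e-09). After 9 days without drug the difference from CC was -0.01 on the log2 scale (95% interval -0.17 to 0.14).

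POLH (chromosome 6, 43576185 to 43620523, plus strand) encodes the polymerase that copies past ultraviolet-induced thymine dimers and is lost in the variant form of xeroderma pigmentosum. It had 30.5, 33.8 and 30.4 CPM in CC and 21.4, 20.1 and 19.7 CPM in TC. In PC it had 24.5, 25.4 and 24.5 CPM. RC held the highest values, 53.5, 50.6 and 50.001 CPM. The 4 groups did not overlap, in the order TC, PC, CC and RC. Its log2 fold change was -0.63 in TC (SE 0.07, adjusted p 4.3e-06), -0.35 in PC (SE 0.07, adjusted p 0.00054) and 0.70 in RC (SE 0.07, adjusted p 3.0e-05).

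POLI (chromosome 18, 54269517 to 54321266, plus strand), a polymerase with very low fidelity opposite thymine, moved least. Its 12 libraries lay between 17.9 and 22.9 CPM. CC had 22.8, 22.9 and 20.5 CPM, and TC had 18.1, 17.9 and 19.1 CPM. PC had 21.4, 19.1 and 20.5 CPM, and RC had 17.97, 18.7 and 19.4 CPM. The TC and RC libraries were below those of CC, and PC overlapped CC. The log2 fold change was -0.27 in TC (SE 0.08, adjusted p 0.0089; 0.0521 with the 2 groups alone in the fit) and -0.12 in PC, which did not pass the test (95% interval -0.29 to 0.05, adjusted p 0.196). In RC it was -0.24 (adjusted p 0.0295), a call that was lost under 7 of 18 alternatives, among them the fits without CC replicate 1, CC replicate 2, RC replicate 1 or RC replicate 2 (adjusted p 0.0637 to 0.107 in these).

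REV1 (chromosome 2, 99400475 to 99490035, minus strand) had 34.6, 32.7 and 47.8 CPM in CC, where replicate 3 stood above the others. That library also had the lowest mitochondrial share of the CC group. TC had 30.5, 30.1 and 29.1 CPM, PC 30.2, 31.7 and 29.4 CPM, and RC 39.0, 41.5 and 38.4 CPM. The log2 fold change was -0.36 in TC (SE 0.12, adjusted p 0.0160; 0.0666 with the 2 groups alone in the fit) and -0.34 in PC (SE 0.12, adjusted p 0.0220). Without CC replicate 3 the change was -0.16 in TC (adjusted p 0.0361) and -0.14 in PC (adjusted p 0.0745). The PC call was also lost without PC replicate 1 (adjusted p 0.0546) or PC replicate 3 (adjusted p 0.0648) and with the 2 groups alone in the fit (adjusted p 0.0806). In RC the change was 0.05 (95% interval -0.21 to 0.30), but without CC replicate 3 it was 0.24 (adjusted p 0.0111).

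**Figure D2:**
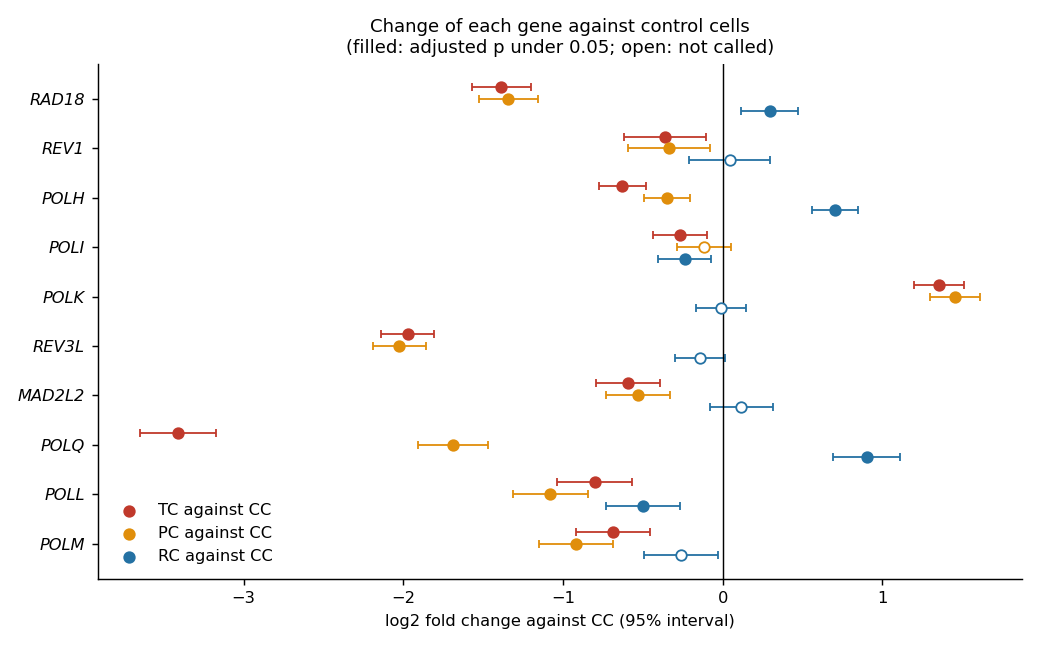
log2 fold change of each gene against CC (x axis) with its 95% interval, for TC, PC and RC, with filled points for an adjusted p under 0.05 and open points for the rest. POLK lies at 1.35 and 1.46 in TC and PC, opposite to the 9 other genes, and at -0.01 in RC.

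The genes of polymerase zeta fell by unequal amounts. REV3L (chromosome 6, 111299028 to 111483715, minus strand) encodes the catalytic subunit. It had 125, 117 and 135 CPM in CC but 31.2, 30.6 and 34.3 CPM in TC. In PC it had 32.1, 30.5 and 29.97 CPM, and in RC 106, 114 and 121 CPM. The highest TC or PC library had 34.3 CPM, far below the lowest CC library. The drop was 3.92-fold in TC (log2 fold change -1.97, SE 0.08, adjusted p 6.9e-10) and 4.07-fold in PC (log2 fold change -2.03, SE 0.08, adjusted p 5.6e-10). In RC the libraries overlapped those of CC, with a difference of -0.14 (95% interval -0.30 to 0.02, adjusted p 0.145).

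MAD2L2 (chromosome 1, 11658918 to 11691811, minus strand) links REV3L to REV1 and is also a part of shieldin, the complex that limits resection of broken ends. Its level was 65.5, 77.3 and 56.5 CPM in CC and 44.98, 43.3 and 43.9 CPM in TC. In PC it was 47.7, 45.6 and 44.9 CPM and in RC 70.0, 72.0 and 74.2 CPM. The TC and PC libraries were below all CC libraries, and the RC libraries lay within the range of CC. The log2 fold change was -0.59 in TC (SE 0.09, adjusted p 9.9e-05) and -0.53 in PC (SE 0.09, adjusted p 0.00023). In RC it was 0.12 (95% interval -0.08 to 0.32), and leaving out a library gave from 0.018 (without CC replicate 3) to 0.24 (without CC replicate 2, adjusted p 0.0141). The accessory subunits that polymerase zeta shares with replicative polymerase delta were lower too, with log2 fold changes of -0.79 for POLD2 and -1.03 for POLD3 in TC (adjusted p 9.9e-08 and 3.7e-06).

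POLQ (chromosome 3, 121431431 to 121545988, minus strand), the polymerase of theta-mediated end joining, had the widest range of the 10 genes. CC had 31.8, 33.4 and 36.8 CPM, and TC had 3.71, 2.89 and 3.02 CPM. PC had 9.42, 10.9 and 11.3 CPM, and RC had 63.4, 64.3 and 63.0 CPM. The 4 groups did not overlap. TC was 10.6-fold below CC (log2 fold change -3.41, SE 0.11, adjusted p 2.0e-10). PC was 3.22-fold below CC (log2 fold change -1.69, SE 0.10, adjusted p 2.2e-08). RC was 1.87-fold above CC (log2 fold change 0.90, SE 0.10, adjusted p 5.1e-05).

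The end joining polymerases of the X family fell less. POLL (chromosome 10, 101578882 to 101588270, minus strand) had 31.1, 27.3 and 23.3 CPM in CC and 15.3, 17.0 and 14.6 CPM in TC. It had 13.7, 12.2 and 12.8 CPM in PC and 18.8, 18.5 and 20.4 CPM in RC. All 9 libraries from cells exposed to MAPKi were below the CC libraries. The log2 fold change was -0.80 in TC (SE 0.11, adjusted p 2.8e-05), -1.08 in PC (SE 0.11, adjusted p 2.1e-06) and -0.50 in RC (SE 0.11, adjusted p 0.0033).

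POLM (chromosome 7, 44072062 to 44082530, minus strand), which can extend ends with little template pairing, had 34.4, 29.5 and 26.6 CPM in CC and 21.2, 17.6 and 17.4 CPM in TC. PC had 15.1, 16.6 and 16.1 CPM, and RC had 23.8, 25.9 and 25.8 CPM. RC libraries were below those of CC by a small gap. The log2 fold change was -0.69 in TC (SE 0.11, adjusted p 9.9e-05) and -0.92 in PC (SE 0.11, adjusted p 8.2e-06). In RC it was -0.26 and did not pass the test (95% interval -0.49 to -0.03, adjusted p 0.0713), but it did without CC replicate 3 (-0.34, adjusted p 0.0207). Without CC replicate 1 it was -0.16 (adjusted p 0.272).

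Against CC, 8 of the 10 genes were lower and 1 was higher in PC (35.9% and 33.2% of all genes tested), with a median of -0.72 beside -0.04 for all genes. Beyond 1.5-fold, REV3L, POLQ, RAD18, POLL and POLM were lower (19.9%) and POLK was higher (17.2%). In RC, POLQ, POLH and RAD18 were higher (18.2% of all genes tested) and POLL and POLI were lower (19.1%), with a median of 0.02 beside 0.00. Only POLQ was higher beyond 1.5-fold in RC (1.35% of all genes tested). That call was lost without CC replicate 1 or without any of the 3 RC replicates, and without CC replicate 2 there were 2 such genes. No gene of the 10 was lower beyond 1.5-fold in RC in edgeR or DESeq2 (2.52% of all genes tested in edgeR), and the lowest fitted change, -0.50 in POLL, was smaller than 1.5-fold. The libraries did not overlap with CC in 9 genes in PC, with 8 below (36.1% of all genes tested) and POLK above (34%). In RC they did not overlap in 6 genes, with POLQ, POLH and RAD18 above (23.7%) and POLL, POLM and POLI below (23.5%). The TC, PC and RC comparisons share the CC libraries, so their values are not independent.

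After drug removal the genes differed between groups in separate steps. PC and RC came from culture batches of their own, so each step compares batches as well as days without drug. The comparison of PC with TC covered the first 2 days without drug. POLQ rose 3.30-fold in this interval (log2 fold change 1.72, SE 0.11, adjusted p 1.1e-06), and POLH rose by 0.28 (SE 0.07, adjusted p 0.0101). These were 2 of the 10 genes, where 12.2% of all genes tested were higher. POLQ was also higher beyond 1.5-fold (2.33% of all genes tested). None of the 10 was lower at an adjusted p under 0.05 in edgeR or in DESeq2, where 12.5% of all genes tested were in edgeR, and 1 was at an unadjusted p under 0.05. This was POLL, with a log2 fold change of -0.28 (95% interval -0.51 to -0.04, adjusted p 0.0815), which passed the test with the 2 groups alone in the fit (adjusted p 0.0447), without CC replicate 1 (0.0480) and without CC replicate 3 (0.0320). None of the 10 was lower beyond 1.5-fold in edgeR or DESeq2 (1.15% of all genes tested in edgeR), since the lowest fitted change was that of POLL. The PC libraries were all above those of TC in POLQ and POLH (23.7% of all genes tested) and all below them in POLL and POLM (23.4%). REV3L stood at -0.05 (95% interval -0.22 to 0.11) and POLK at 0.10 (95% interval -0.05 to 0.26), so that any shift between day 0 and day 2 was small beside their changes from CC.

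The comparison of RC with PC covered the following days. At day 9, 8 genes were higher than in PC and POLK was lower (35.7% and 34.2% of all genes tested), and the median of the 10 was 0.65 beside 0.01 for all genes. POLK fell 2.77-fold (log2 fold change -1.47, SE 0.07, adjusted p 4.1e-09). POLQ rose 6.02-fold (log2 fold change 2.59, SE 0.10, adjusted p 8.5e-10), REV3L 3.69-fold (1.88, SE 0.08, adjusted p 9.2e-10), RAD18 3.11-fold (1.64, SE 0.09, adjusted p 7.1e-09) and POLH 2.07-fold (1.05, SE 0.07, adjusted p 3.8e-08). These 4 were higher beyond 1.5-fold (20.2%) and POLK was lower beyond it (18.5%). POLM (0.66), MAD2L2 (0.65), POLL (0.58) and REV1 (0.38, adjusted p 0.0112) rose by less. POLI was at -0.12 (95% interval -0.29 to 0.05). The libraries of RC were all above those of PC in the 8 genes that rose (40% of all genes tested) and all below them in POLK (38.6%).

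**Figure D3:**
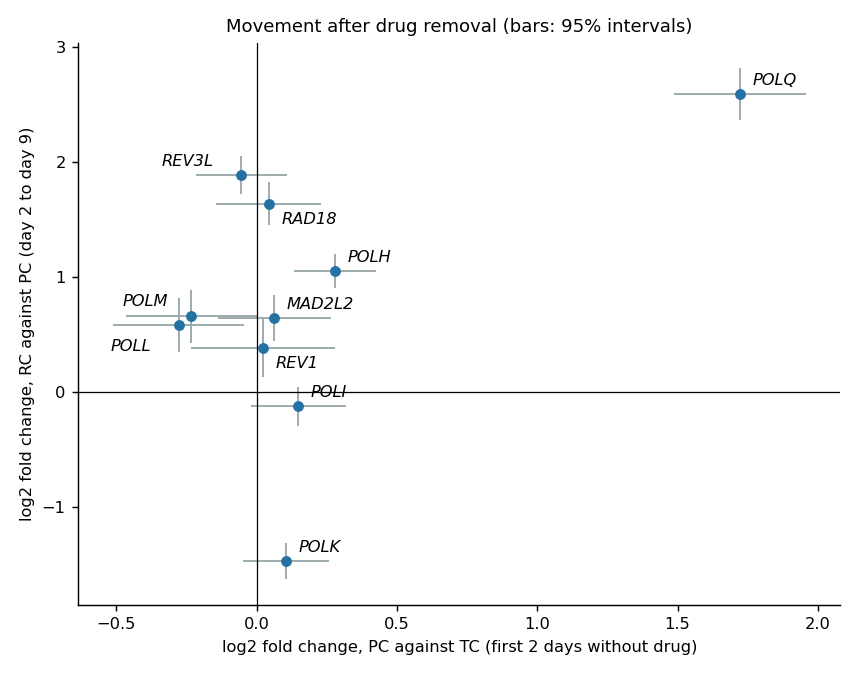
log2 fold change of each gene from TC to PC (x axis) against that from PC to RC (y axis), with 95% intervals. POLQ differed in both steps (1.72 and 2.59), while REV3L, RAD18 and POLK differed in the later step (1.88, 1.64 and -1.47). Both axes share the PC libraries, and each step also compares separate culture batches.

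Scaled per kilobase of the Ensembl canonical transcript, the levels of the genes can be set beside each other. MAD2L2, whose transcript is short, was highest in every group (63.1 CPM per kb in CC and 41.8 in TC). POLK was the lowest of the 10 in CC (2.95 ± 0.09 CPM per kb, SD, n = 3) and became the next after MAD2L2 in TC (7.53 ± 0.52) and PC (8.09 ± 0.38). In TC its range of 7.05 to 8.09 CPM per kb overlapped that of POLM, the neighbour below it (6.22 to 7.54). REV3L was next after MAD2L2 in CC (11.7 ± 0.83) and RC (10.6 ± 0.71), although in CC its range (10.96 to 12.6) overlapped that of POLM (9.47 to 12.3). It ranked 7 in TC (2.99 ± 0.18), where it overlapped POLI (3.05 ± 0.11). POLQ was last in TC (0.366 ± 0.05) and PC (1.20 ± 0.11) and ranked 6 in RC (7.26 ± 0.08), overlapping the ranges of its neighbours RAD18 (7.20 to 8.04) and POLL (6.66 to 7.34). Scaled by all annotated exons instead, MAD2L2 was still first, at 12.2 CPM per kb in CC and 8.11 in TC. REV3L followed at 10.1 in CC and POLK at 6.16 in TC, so the size of the MAD2L2 lead depends on the length used. On this scale POLK ranked 9 in CC, with POLI at 10, and POLQ ranked 3 in RC.

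Within the Y family, the make-up of the transcripts changed. POLK made up 15.98 ± 1.13% of the summed CPM per kb of REV1, POLH, POLI and POLK in CC (SD, n = 3), 38.9 ± 1.31% in TC, 38.8 ± 1.46% in PC and 14.2 ± 0.87% in RC. Its range was 14.8% to 17.0% over the CC libraries and 37.6% to 40.2% over the TC libraries, with no overlap. REV1 went from 43.6 ± 5.93% in CC to 32.7 ± 0.54% in TC and POLH from 20.5 ± 2.34% to 12.6 ± 0.11%. In RC, POLH held 29.9 ± 1.41% and REV1 40.8 ± 0.96%. These shares depend on the transcript lengths used and were not tested. By all annotated exons, POLK held 17.9% in CC and 42.7% in TC, and with no scaling for length 31.9% and 61.5%.

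**Figure D4:**
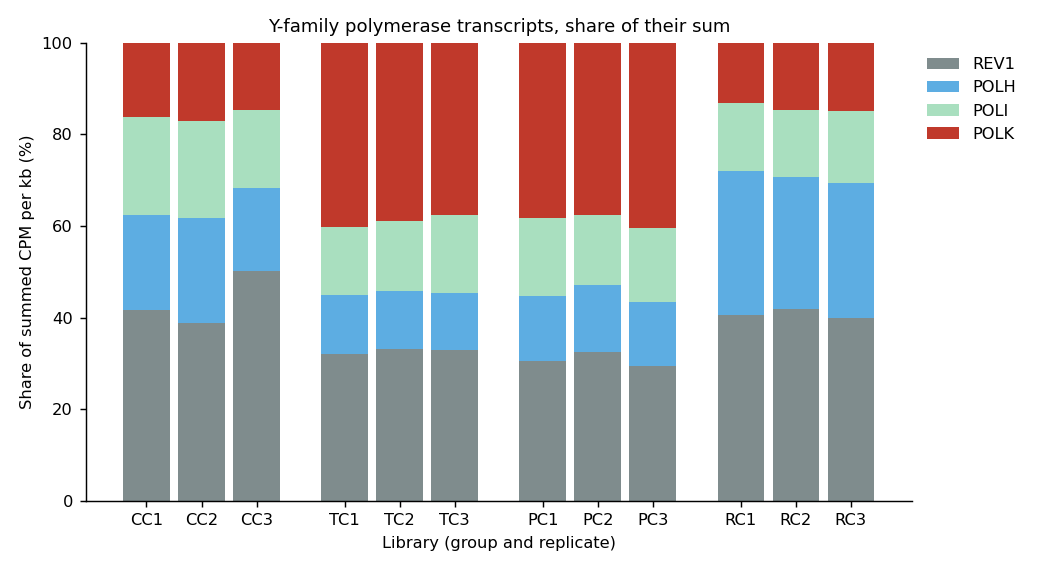
Share of REV1, POLH, POLI and POLK in their summed CPM per kb (y axis, percent) in each of the 12 libraries (x axis). The POLK share is 37.6% to 40.4% in the 6 libraries of TC and PC and 13.2% to 17.0% in the 6 libraries of CC and RC.

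Genes that work with the 10 were followed in lists. Their counts stand beside the shares of all genes tested, which were 34.7% lower and 33.2% higher in TC, 35.9% lower and 33.2% higher in PC, and 19.1% lower and 18.2% higher in RC. Of 17 genes of PCNA ubiquitination and damage bypass, 9 were lower and 3 higher in TC, with a median log2 fold change of -0.63. PCNA itself fell by 1.37 on the log2 scale in TC and by 1.05 in PC and was higher in RC (0.62). USP1, which removes the mark that RAD18 sets, had values of -0.81, -0.39 and 0.43 in TC, PC and RC, and PRIMPOL, which restarts synthesis beyond a lesion, had -0.59, -0.59 and 0.32. The largest drops were in PCLAF, a PCNA-binding protein (-3.97 in TC), and DTL, which targets PCNA-bound proteins for degradation (-3.23). The genes that rose in TC were SMARCAL1 (0.30), a fork remodeler, and the ubiquitin-conjugating enzymes UBE2B (0.29) and UBE2N (0.22), the last with overlapping libraries. All 3 calls were lost with the 2 groups alone in the fit, and 1 was left without CC replicate 1. In PC, 9 of the list were lower and 5 higher (median -0.39), and in RC 1, UBE2B (-0.37), was lower and 11 were higher (median 0.32). UBE2A, a partner enzyme of RAD18, varied within groups from 0.275 to 22.2 CPM in CC and gave no usable comparison (log2 fold change -3.63 in TC, not called).

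The 7 partners of MAD2L2 in shieldin and its control moved in both directions, with 3 higher and 3 lower in TC beside 33.2% and 34.7% of all genes tested. In TC, SHLD1 (0.71), TP53BP1 (0.51) and SHLD2 (0.23) were higher, whereas TRIP13 (-2.64), the ATPase that takes MAD2L2 out of its complexes, RIF1 (-1.05) and MAD2L1BP (-0.39) were lower. SHLD3 was at 0.30 and was not called. The median was 0.23 in TC, 0.24 in PC and 0.20 in RC, and the same counts of 3 higher and 3 lower held in PC. In RC, TRIP13 (0.72), TP53BP1 (0.35) and MAD2L1BP (0.27) were higher and SHLD1 (-1.01) was lower. TRIP13 rose by 1.33 between TC and PC, an interval in which MAD2L2 was at 0.06 (95% interval -0.14 to 0.26).

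Of the 8 partners of POLQ in end joining, 7 were lower in TC (34.7% of all genes tested) and HELQ, a helicase, was higher (0.47; 33.2%). The median was -0.79 in TC, -0.57 in PC and 0.31 in RC. XRCC1 (-1.30), the scaffold of DNA ligase LIG3, and TOPBP1 (-1.29), which helps to recruit POLQ in mitosis, had the largest drops in TC, and in RC they were at 0.01 and 0.20, not called. In PC 6 were lower and HELQ (0.58) was higher, and in RC PARP1, LIG3, FEN1 and RHNO1 were higher (0.42 to 0.97), where 35.9% of all genes tested were lower in PC and 18.2% were higher in RC.

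Of the 10 genes of classical end joining, in which POLL and POLM act, 9 were tested, since DNTT was too low. In TC, 5 were lower and 3 higher (median -0.29), beside 34.7% and 33.2% of all genes tested. LIG4, the ligase of this pathway, rose by 1.53 in TC and 1.28 in PC, and APLF by 1.28 and 1.36, and NHEJ1 was higher as well (0.55 and 0.46). PRKDC, the catalytic kinase subunit, had -1.37 and -1.76, and XRCC4, the partner of LIG4, -0.95 and -0.79. PC gave the same counts (median -0.25; 35.9% and 33.2% of all genes tested). In RC, XRCC6, PAXX, XRCC4 and XRCC5 were higher (0.35 to 0.62; 18.2% of all genes tested) and LIG4 was at 0.00 (median 0.35).

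Replicative polymerase genes, which copy undamaged DNA, had a lower median in TC than the 10 genes. Of 12, 10 were lower in TC (34.7% of all genes tested) and POLD4 was higher (0.83), with a median of -1.27, and in PC 9 were lower (35.9%) and POLD4 was higher (0.64), with a median of -1.13. POLE (-2.96) and PRIM1 (-2.83) had the largest drops in TC. In RC, 10 were higher (18.2% of all genes tested) and none was lower in edgeR (median 0.44), with 0 lower at an unadjusted p under 0.05 and 0 in DESeq2. Of the 4 other polymerases, POLG, the mitochondrial polymerase, was lower in TC (-0.43) and PC (-0.72), and POLG2 was lower in PC (-0.30). POLN, named here after its values were seen, was higher (1.45 and 1.23). Its level was low, with means of 0.641 CPM in CC, 1.76 CPM in TC and 1.51 CPM in PC. In RC none of these 4 passed the test in either direction in edgeR or in DESeq2, and POLG (0.18) alone had an unadjusted p under 0.05.

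The 10 proliferation markers were all lower in TC (median -3.72; 34.7% of all genes tested), 9 were lower in PC (-1.76; 35.9%) and all were higher in RC (0.82; 18.2%). MKI67 had means of 188, 11.7, 51.5 and 372 CPM in CC, TC, PC and RC, and TOP2A 645, 28.1, 110 and 871 CPM. Between TC and PC all 10 markers rose (median 2.07), where 12.2% of all genes tested were higher. Of the 10 translesion and error-prone genes, POLQ and POLH rose in this interval. A list of 10 genes of MAPK output, among them DUSP6 and SPRY4, had medians of -3.50 in TC, -3.68 in PC and -0.12 in RC. Between TC and PC its median was -0.43. The part of the share of dividing cells or of MAPK output in the changes of the 10 polymerase genes was not tested.

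**Figure D5:**
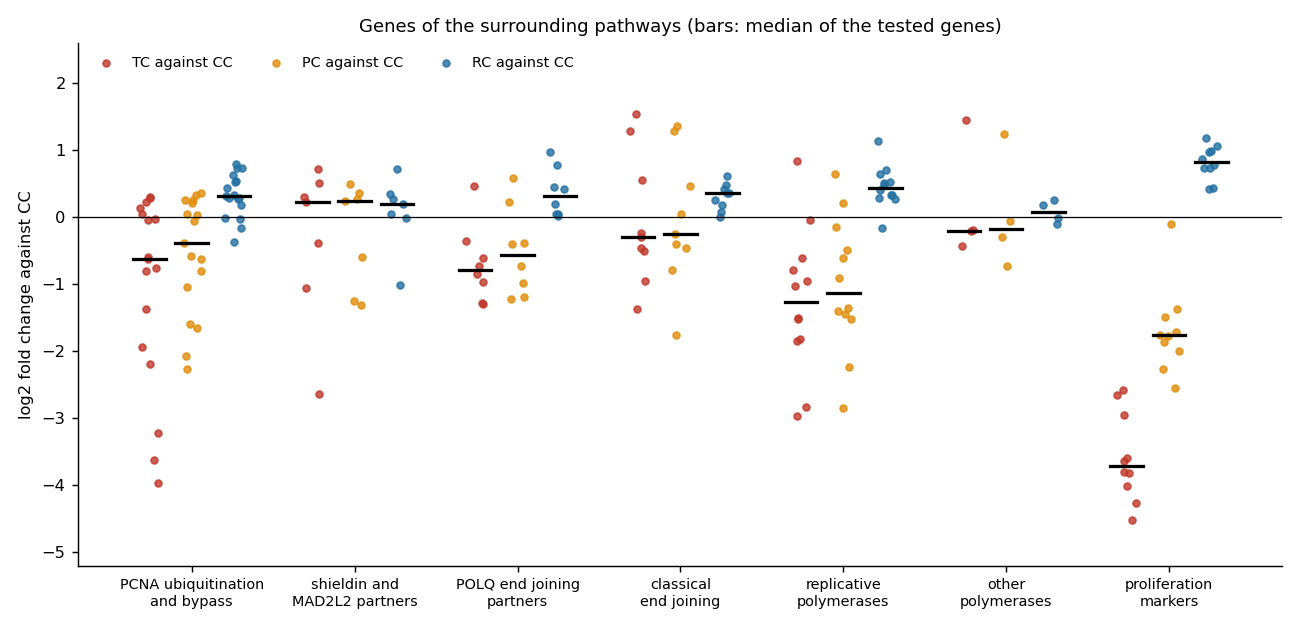
log2 fold change against CC (y axis) of the tested genes of 7 lists (x axis), for TC, PC and RC, with a bar at the median. The medians in TC run from 0.23 for the shieldin list to -3.72 for proliferation markers.

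The genes with levels most like those of each member were found by the Pearson correlation of log2 CPM over the 12 libraries, among 11907 genes with a mean of at least 100 counts. The 12 points fall into 4 groups of 3, so the values describe likeness mainly across group levels, and no p is given. For POLQ they were LMNB1, MKI67 and MCM10 (r 0.998 for each), and for RAD18 they were NASP, SMC2 and HSPD1 (0.995 to 0.996). REV3L was most like USP53, EIF4EBP1 and SYTL5 (0.997 to 0.998). POLK was most like ADCY5, NR5A2 and LOC105373215 (0.993 to 0.995), and POLH most like PTMA, RECQL4 and TNFAIP8 (0.992 to 0.994). POLI had the weakest likeness, to CCDC188 (0.943), KCNK15-AS1 (0.911) and TTC31 (0.905). REV1 was most like NUP50 (0.978), MAD2L2 most like LOC107984011 (0.992), POLL most like FEZF1-AS1 (0.990) and POLM most like ARHGEF6 (0.990). Between members, REV3L and POLK had an r of -0.99, REV3L and RAD18 one of 0.97, and POLL and POLM one of 0.94.

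Since the study examined codon content, the share of the codons GAA, GAT, AAA and AAT was computed for each canonical coding sequence. It was 19.8% in both RAD18 and POLK, which stood at percentiles 95.9 and 95.8 of the 12728 tested genes with a coding sequence, whose median was 9.13%. RAD18 fell and POLK rose in TC. The study compared codon content over sets of mRNAs, and any link of these shares to the changes given here was not tested. POLI had 17.8%, REV3L 17.4%, REV1 16.3% and POLQ 15.2%, all above the upper quartile of 13.7%. POLH (10.7%), MAD2L2 (8.06%) and POLL (7.13%) lay near the median, and POLM (3.04%) was below the lower quartile of 4.86%.

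Exons of 7 of the 10 genes overlap an exon of a gene on the opposite strand. The overlap was 876 bases between MAD2L2 and FBXO6, 852 between REV1 and EIF5B, 261 between POLH and GTPBP2, 243 between POLL and DPCD and 144 between POLK and CERT1. Antisense RNAs overlap POLK by 754 bases, REV3L by 576 and 117 and POLI by 512. Whether counting used strand was not stated, so reads from these stretches cannot be assigned with certainty. POLM contains a microRNA gene on its own strand, and POLQ and RAD18 have no overlapping exon in the annotation used.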

How the data were processed

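RNA-seq libraries of A375 cells, 3 in each of 4 groups (CC, TC, PC and RC), were taken from the deposited table of raw counts per gene, in which the values are not normalized. The authors trimmed paired reads with fastp 0.20.1, aligned them to GRCh38.p13 with HISAT2 2.2.1 and counted them on exons with htseq-count 0.13.5, and whether counting used strand was not given in the sources used here. Total counts ran from 37773389 to 55567097 per library, and 3 counts at the lowest depth equal 0.0794 CPM by the total count, before normalization.

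Genes with a mean scaled count of at least 10 were kept (15916 of 44659). The 4 group means were estimated together from the 12 libraries by quasi-likelihood in edgeR 4.0.16 (R 4.3.3), with TMM factors of 0.965 to 1.02 and 8 residual degrees of freedom. A call needed a Benjamini-Hochberg adjusted p under 0.05 over all genes tested (two-sided), and a call beyond 1.5-fold used glmTreat. Standard errors came from the F statistic. DESeq2 1.42.0 served as an alternative, beside another normalization, a looser filter, fits of 2 groups, a replicate block and leaving out each library. The script was tested on simulated data. CPM use normalized library sizes, and lengths and coding sequences are those of Ensembl canonical transcripts in GENCODE 44. The study names NCBI's annotation, so these lengths may differ from those of the exons counted.

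The 10 genes and the lists were chosen with earlier results of these data known. From each list the text names, for TC against CC, up to 2 genes with the largest rise and up to 2 with the largest fall among called genes with a mean of at least 100 counts, together with the direct partners PCNA, USP1, SHLD1, SHLD2, SHLD3, TP53BP1, LIG4, PRIMPOL and HELQ and the check genes DUSP6, SPRY4, MKI67 and TOP2A. Other list genes (UBE2N, UBE2A, MAD2L1BP, POLD2, POLD3, NHEJ1, POLG2, POLN and those named as higher in RC) were named after their values were seen. No pair of libraries within a group was a duplicate. Alternatives for the transcript length behind the Y-family shares were added after seeing the data.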

Additional observations from a re-analysis of the deposited data

How the results depend on the processing

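The 50 results of the 10 genes (5 comparisons) were each computed under 18 alternatives. Of these 900 values, 871 kept direction and side of the threshold, 15 lost the call, 6 gained it and 8 changed sign; 38 results kept both under all 18. Every change of sign was in a result that was not called. For RC against CC, POLK gave 0.018 with library totals and 0.00027 with the looser filter, and between -0.045 and 0.050 when a library was left out (above 0 without CC replicate 2 or RC replicate 1). REV1 gave between -0.057 and 0.24 there (below 0 without CC replicate 1 or 2). For PC against TC, RAD18 gave between -0.018 (without PC replicate 3) and 0.12, and REV1 between -0.0062 (without PC replicate 2) and 0.047. The cause was not tested. With a replicate block all 50 results kept direction and side. Deviations of libraries with the same number correlated at -0.037 to 0.155 over 15 pairs. In PC against TC they gave 0.068 to 0.155, beside -0.121 to 0.0034 for different numbers. In TC against CC they gave 0.039 to 0.081, beside -0.067 to 0.019. The other comparisons gave -0.037 to 0.042 for the same number. The main fit took the libraries as unpaired, and whether the numbers pair the samples is not settled by these values.

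Counts of the 10 genes moved as follows. Lower genes in RC numbered 1 instead of 2 with library totals, with the looser filter and with the 2 groups alone, and 1 to 3 when a library was left out (1 without CC replicate 1 or 2 or RC replicate 1 or 2). Higher genes beyond 1.5-fold in RC numbered 0 to 2 when a library was left out (1 with all). Lower genes beyond 1.5-fold in TC numbered 3 to 5 over all alternatives (4 in the report), of which POLL was lost and POLM gained. Lower genes in PC against TC numbered 1 instead of 0 with the 2 groups alone, and 0 to 1 when a library was left out. Among the lists with the 2 groups alone, higher genes of PCNA ubiquitination numbered 2 instead of 5 in PC and 0 instead of 3 in TC, the lower gene in RC was lost (0), and lower other polymerases in PC numbered 1. Higher partners of POLQ in PC numbered 2 instead of 1 with RLE factors, library totals and DESeq2. Higher other polymerases in RC numbered 1 with library totals, and lower ones in TC numbered 2 with the replicate block. Over the fits that left out a library, the list counts ran as follows. In PC, higher genes of PCNA ubiquitination ran from 2 to 5 (lowest without CC replicate 1), lower other polymerases from 1 to 2 (1 without PC replicate 1 or 3), higher replicative polymerases from 1 to 2 (2 without CC replicate 2), higher shieldin genes from 1 to 3 (1 without PC replicate 3) and higher POLQ partners from 1 to 2 (2 without CC replicate 2 or PC replicate 1). In RC, lower genes of PCNA ubiquitination ran from 0 to 1 (0 without RC replicate 1), higher other polymerases from 0 to 1 (1 without CC replicate 1), lower replicative polymerases from 0 to 1 (1 without CC replicate 3) and higher shieldin genes from 2 to 5 (5 without CC replicate 3). In TC, higher genes of PCNA ubiquitination ran from 1 to 4 (1 without CC replicate 1) and lower other polymerases from 1 to 2 (2 without CC replicate 3 or TC replicate 2).

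The POLK share of the Y family was 17.9%, 42.7%, 42.2% and 15.3% in CC, TC, PC and RC with all annotated exons, and 31.9%, 61.5%, 61.0% and 28.0% with no scaling for length. With 3 libraries per group, no smallest detectable change was computed, and a result that was not called does not show that a change was absent.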
